A study of Mus musculus with 12 samples.

Results

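Metallothioneins and the antioxidant genes that the transcription factor NRF2 switches on were followed in 12 mouse hearts, 1 bead array per heart. The list named 10 genes: Mt1, Mt2, Hmox1, Nqo1, Gclc, Gclm, Txnrd1, Srxn1, Gsr and Slc7a11. Of these, 9 were found among the 19057 genes named on the array. All probes carrying one of these symbols in the platform annotation were taken, 16 of the 45281 probes on the array. No probe is named Gsr in that annotation, so Gsr was not analysed here. Of the 16 probes, 10 probes of 8 genes were detected on every array of at least 1 group, with a detection p below 0.01, and were tested; over the whole array 18370 probes met that condition.

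The hearts were those of a mouse model of myotonic dystrophy type 1 (DM1), a disease in which an expanded CUG repeat RNA is made. Induced mice carried 2 transgenes, EpA960, the source of the repeat RNA (CUGexp), and MCM, the tamoxifen-inducible and heart-specific part of the system. They received tamoxifen at 20 mg/kg by intraperitoneal injection at an age of 2 to 4 months, as 1 injection or on 5 days in a row, and 3 hearts were taken at 72 h and 3 at 1 week. The labels do not tie either schedule to a time. The controls were 3 adult MCM hearts labelled untreated, 2 adult wildtype hearts and 1 wildtype heart of embryonic day 14 (E14), and all 12 hearts carry the strain label FVB. Since the MCM hearts are labelled untreated, a comparison with them mixes the drug with the repeat RNA, and the 2 cannot be told apart. Nothing in the labels says which hearts, if any, were littermates or were processed together.

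NRF2, encoded by Nfe2l2, is held at low levels by KEAP1, which directs its breakdown. Oxidants and electrophiles release it, and it then binds antioxidant response elements with a small MAF partner and raises enzymes of glutathione synthesis, thiol repair, quinone reduction and heme breakdown, while BACH1 competes for the same sites. Metallothioneins are small cysteine-rich proteins that bind zinc and copper; their genes answer mainly to the zinc sensor MTF1 through metal response elements, and also to glucocorticoids and acute-phase signals. In the heart both systems are known for buffering oxidative and metal stress.

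Promoter sequences are shown because both elements have short known cores and because the metallothionein probes and several antioxidant probes moved together at 1 week. Sequences come from RefSeq on build GRCm38.p6, whose promoter table holds entries for 7 of the members (9 promoters, 3 of them for Txnrd1). A window of 300 bases was searched on both strands, 250 before the start annotated in that table and 50 after it. Whether these hearts use that start was not tested, and sites outside the window were not searched. The 250 bases before that start are printed 5′ to 3′ on the gene's strand. Capitals mark the metal response core, TGCACNC or TGCGCNC, in Mt1 and Mt2, the antioxidant response core, TGACNNNGC, in Gclm and Txnrd1 (the promoter of its 3 that holds the core), and the related TGAGNNNGC in Srxn1. The last motif was added after the sequences had been seen.
Mt1 promoter, chr8:94178839-94179088, plus strand: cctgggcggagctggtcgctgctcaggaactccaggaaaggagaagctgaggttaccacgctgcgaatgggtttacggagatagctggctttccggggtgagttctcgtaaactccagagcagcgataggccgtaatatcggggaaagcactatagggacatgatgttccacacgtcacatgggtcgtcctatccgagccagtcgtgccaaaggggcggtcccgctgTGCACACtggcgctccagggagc
Mt2 promoter, chr8:94172368-94172617, plus strand: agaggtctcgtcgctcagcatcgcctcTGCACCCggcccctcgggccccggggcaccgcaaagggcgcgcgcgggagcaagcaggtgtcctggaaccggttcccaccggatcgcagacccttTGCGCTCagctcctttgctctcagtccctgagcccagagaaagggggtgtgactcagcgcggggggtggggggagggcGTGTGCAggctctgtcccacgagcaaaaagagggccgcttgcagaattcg
Gclm promoter, chr3:122245307-122245556, plus strand: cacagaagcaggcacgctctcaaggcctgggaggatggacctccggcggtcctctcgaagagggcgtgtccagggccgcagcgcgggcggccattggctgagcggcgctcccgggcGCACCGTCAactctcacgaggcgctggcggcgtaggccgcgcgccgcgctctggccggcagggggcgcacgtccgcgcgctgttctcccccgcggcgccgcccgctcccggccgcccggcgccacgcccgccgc
Txnrd1 promoter, chr10:82858956-82859205, plus strand: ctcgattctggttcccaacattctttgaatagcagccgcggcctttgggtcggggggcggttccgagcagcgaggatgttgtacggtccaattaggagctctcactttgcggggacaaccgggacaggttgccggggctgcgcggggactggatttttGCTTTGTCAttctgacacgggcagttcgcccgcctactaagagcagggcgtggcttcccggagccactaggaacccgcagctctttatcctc
Srxn1 promoter, chr2:152105274-152105523, plus strand: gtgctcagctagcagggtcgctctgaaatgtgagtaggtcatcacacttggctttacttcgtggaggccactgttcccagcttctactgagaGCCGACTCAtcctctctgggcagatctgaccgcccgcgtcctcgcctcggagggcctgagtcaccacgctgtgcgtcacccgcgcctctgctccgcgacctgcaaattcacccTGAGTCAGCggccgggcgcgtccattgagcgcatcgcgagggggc

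In the 300-base window the metal response core occurred 4 times in Mt2, 3 times each in Mt1 and Gclm, and 1 time in Srxn1. Before the annotated start lay 3 of the copies in Mt2, 1 in Mt1, 2 in Gclm and 1 in Srxn1. The other Mt1 copies began 2 and 20 bases after it, so the count on each side depends on the start used. At least 3 copies are held by 1.97% of the 32851 mouse promoters in the table, at least 4 by 0.518%, and at least 1 by 25.7%. The antioxidant response core occurred 1 time each in Mt2, Gclm, Txnrd1 and Srxn1, the Srxn1 copy lying after the start; 12.4% of all promoters hold it. TGAGNNNGC occurred 2 times in Srxn1, a number that 1.91% of promoters reach, and 1 time in Slc7a11, where 17.65% of promoters hold at least 1. The windows of Nqo1 and of the other Txnrd1 promoters held none of these letters. A match is a description of the sequence only; no binding was measured.

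Each array detected 14202 to 16774 probes. Values are log2 of the background-corrected, quantile-normalised signal, and levels are compared only for the same probe between hearts. A difference was called at an adjusted p below 0.05 in a limma model over all 18370 kept probes. Some hearts stood apart in cell type markers. Summed signal of 10 macrophage and monocyte markers was 17049 in 72 h replicate 2, against 7158 and 5647 in the other 72 h hearts, 6116 to 6816 in the MCM hearts, 6659 to 6701 in adult wildtype hearts, 2074 in the E14 heart and 30892 to 36284 at 1 week. The markers Fcer1g and Ctss were detected on no MCM array. Summed signal of 6 cardiomyocyte markers was 224026 to 228960 in MCM hearts, 202111 to 229883 at 72 h, 165185 to 167357 at 1 week, 215857 to 219596 in adult wildtype hearts and 117509 in the E14 heart. Summed atrial markers were 21810 in MCM replicate 3 and 34280 in 72 h replicate 3, against 89092 to 139137 in the other adult hearts. The raw 1st percentile of signal was 54.4 to 59.1 on the 6 induced arrays and 63.0 to 76.2 on the other 6, so array background and induction cannot be told apart.

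At 1 week after induction, 9 of the 10 tested probes, of 7 genes, were higher than in MCM hearts and none was lower. Mt1, Mt2, Hmox1, Gclm, Txnrd1, Srxn1 and Slc7a11 passed the test, and Nqo1 did not. Over the whole array 52.8% of kept probes were called in this comparison, 24.9% as higher and 27.9% as lower. The groups did not overlap for any of the 10 probes, as for 30.5% of all kept probes in the upward direction. The median difference of the 10 probes was 2.13 on the log2 scale against -0.03 over all kept probes. Mt2, Txnrd1 and Slc7a11 probe 2 were kept only because all 3 hearts at 1 week detected them, so they had to be higher there. Their calls add no support. The non-overlap count and the median include these probes and all 3 Srxn1 probes, so neither adds support beyond the probes not fixed by the filter. Among the 5 probes detected on every MCM array, 4 were called higher.

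**Figure D1:**
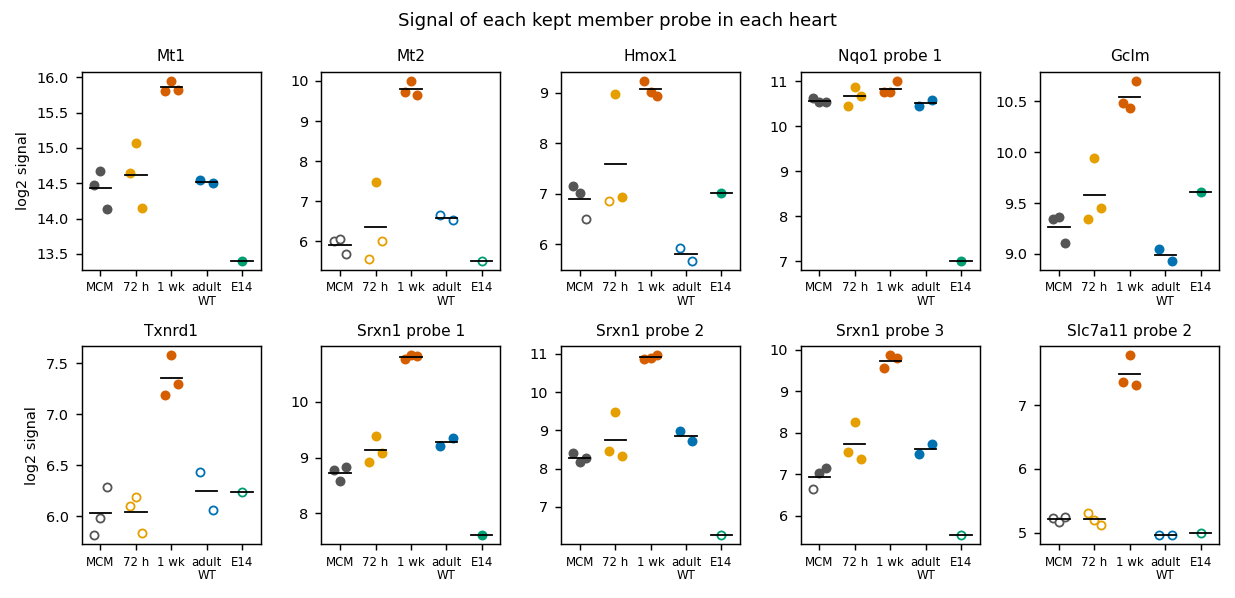
Log2 signal (vertical axes, own scale per panel) of the 10 kept probes in each of the 12 hearts, by group. Filled points are detected (detection p below 0.01), open points are not, and black lines are group means; in every panel the 3 hearts at 1 week lie above the 3 MCM hearts.

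The metallothioneins were read by 1 probe each. Mt1, a metallothionein made in most tissues, had log2 signals of 15.80, 15.95 and 15.82 at 1 week and 14.48, 14.68 and 14.14 in MCM hearts. All 3 hearts at 1 week lay above all other hearts in the series. The difference was 1.42 ± 0.19 (SE, n = 3 per group), 2.69-fold, with an adjusted p of 8.44e-05 in limma. Mt1 lay near the top of the scale at 1 week, which ends at log2 16.07, and its raw signals there ran from 51986 to 65203.

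Mt2, the companion metallothionein whose promoter is printed above, was at 9.73, 9.999 and 9.64 at 1 week and at 5.99, 6.06 and 5.68 in MCM hearts, where it was not detected. It was detected in 4 of the 12 hearts, the 3 at 1 week and 72 h replicate 2. The difference was 3.88 ± 0.37 (adjusted p = 6.81e-06, limma), and since the MCM hearts lay below detection it is given as at least 7.66-fold. Such a bound sets the bright group against the lowest signal that counted as detected on each dim array, or the dim probe's own signal where higher.

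Hmox1, the inducible heme oxygenase that opens heme to release iron, biliverdin and carbon monoxide, was at 9.23, 9.02 and 8.94 at 1 week and at 7.15, 7.02 and 6.49 in MCM hearts. It was detected in 2 of the 3 MCM hearts and in neither adult wildtype heart. The difference from MCM was 2.18 ± 0.43, 4.53-fold (adjusted p = 0.00116, limma). The standard error was wider than for any other tested probe, and 72 h replicate 2, at 8.97, lay inside the 1 week range.

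Among the glutathione genes, Gclm, the modifier subunit of the enzyme that makes the first and limiting bond of glutathione, was detected in all 12 hearts. Its signals were 10.48, 10.44 and 10.70 at 1 week and 9.34, 9.36 and 9.10 in MCM hearts. The difference was 1.27 ± 0.15, 2.41-fold (adjusted p = 3.68e-05, limma). The catalytic subunit of the same enzyme, Gclc, was read by 1 probe that no array detected, with log2 signals between 5.61 and 6.64, so no change in Gclc could be seen at this signal.

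Slc7a11, the cystine importer that feeds glutathione synthesis, had 5 probes. Probe 2 was detected only at 1 week, at 7.37, 7.78 and 7.31, against 5.24, 5.17 and 5.24 in MCM hearts. Its difference was 2.27 ± 0.14 (adjusted p = 2.29e-07, limma), or at least 1.55-fold. The other 4 Slc7a11 probes were detected on no array. Probes 1 and 4 are annotated to cDNA clones, and probes 3 and 5 to the same transcript as probe 2, so the rise rests on 1 of 3 probes of that transcript. Slc3a2, the partner chain of the same importer, was also undetected in MCM hearts and at least 2.73-fold higher at 1 week (log2 difference 2.49 ± 0.15, adjusted p = 2.18e-07, limma). Like Slc7a11 probe 2, it was kept through its detection at 1 week alone and had to be higher there.

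In the thiol repair branch, Srxn1, the sulfiredoxin that restores over-oxidised peroxiredoxins, had 3 probes and all 3 rose. Probe 1 was at 10.76, 10.83 and 10.83 at 1 week and at 8.78, 8.58 and 8.82 in MCM hearts. Probe 2 was at 10.87, 10.89 and 10.96 against 8.40, 8.17 and 8.27. Probe 3 was at 9.55, 9.86 and 9.79 against 6.64, 7.02 and 7.15, the lowest of which was not detected. The 3 probes gave differences of 2.08 ± 0.13, 2.63 ± 0.24 and 2.79 ± 0.22 on the log2 scale, that is 4.24-fold, 6.18-fold and 6.92-fold. Their adjusted p-values were 3.04e-07, 4.81e-06 and 2.13e-06 in limma. Srxn1 was the one member with more than 1 tested probe, and its probes gave the same direction and call.

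Txnrd1, the cytosolic thioredoxin reductase, was detected only at 1 week, at 7.19, 7.58 and 7.30, against 5.82, 5.99 and 6.29 in MCM hearts. The difference was 1.32 ± 0.18 (adjusted p = 7.59e-05, limma), at least 1.42-fold. These signals lie close to the detection floors, which ran from log2 6.40 to 7.004 over the arrays. Txn1, the cytosolic thioredoxin that this enzyme reduces, was detected in every group and was 1.92-fold higher at 1 week (0.94 ± 0.12, adjusted p = 5.18e-05, limma).

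Nqo1, the quinone reductase often used as the reference NRF2 target, was the exception. Probe 1 was detected in all hearts at 10.75, 10.76 and 11.01 at 1 week and 10.64, 10.53 and 10.55 in MCM hearts. The 1 week hearts lay above the MCM hearts without overlap, but the difference of 0.27 ± 0.12, 1.20-fold, had an adjusted p of 0.0794 in limma. Its 95% interval ran from 0.01 to 0.53. No test between the genes was made. Without 72 h replicate 2 in the fit, which changes the shared spread and not this difference, the adjusted p was 0.0342. Probe 2 of Nqo1 was not detected on any array.

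Macrophage markers moved with these genes: all 10 tested markers were called higher at 1 week, with a median difference of 2.09 on the log2 scale. Fcer1g, one of them, was detected on no MCM, 72 h, adult wildtype or E14 array. It was kept through 1 week alone and had to be higher there. All 4 tested erythroid markers were also called higher, with summed signals of 109459 to 117781 at 1 week and 48693 to 73063 in MCM hearts, and 128104 to 135417 in adult wildtype hearts. Both tested neutrophil markers were higher, with sums of 3484 to 4563 against 1359 to 1675. At 72 h both neutrophil markers, S100a8 and S100a9, were called lower than in MCM hearts, with sums of 488 to 827. Over all genes, with 1 probe per gene, 0.0885% were called lower at 72 h. Of 5 fibroblast markers 3 were higher at 1 week, with a median of 0.96 over the list, and of 3 endothelial markers 2 were lower. Of 6 cardiomyocyte markers 4 were lower. At 1 week 27.3% of all genes were called higher than in MCM hearts and 26.6% lower. The part of these cell types in the result was not tested. In whole hearts, more cells of a type and more RNA per cell cannot be told apart.

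With the 2 adult wildtype hearts as the control group, the same 9 probes were called higher at 1 week, in a comparison where 47.8% of all kept probes were called, 22.6% as higher. Gclm was then 2.92-fold, Mt1 2.52-fold and Srxn1 probe 2 4.14-fold higher, and Hmox1 at least 4.57-fold. Nqo1 probe 1 gave 0.31 ± 0.13 (adjusted p = 0.0706, limma). Mt2, Txnrd1 and Slc7a11 probe 2 were kept through 1 week alone, so they had to be higher against this control too. Both comparisons share the 3 hearts at 1 week.

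**Figure D2:**
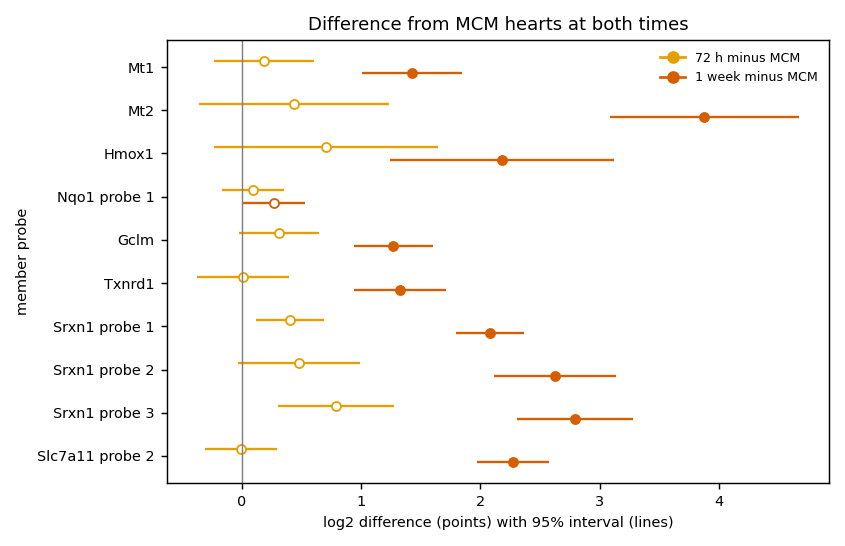
Log2 difference from the MCM hearts of each kept probe at 72 h and at 1 week, with 95% intervals from limma; filled points passed an adjusted p of 0.05. At 1 week all points but Nqo1 probe 1 are filled, from 1.27 to 3.88, and at 72 h none is.

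At 72 h none of the 10 probes was called against MCM hearts in limma, where 0.229% of all kept probes were called; at an unadjusted p below 0.05 there were 2, both of Srxn1, against 7.64% of all kept probes. Srxn1 probe 1 was at 8.92, 9.40 and 9.09, a difference of 0.41 ± 0.13 (adjusted p = 0.558, limma). Srxn1 probe 3 was at 7.54, 8.26 and 7.38, a difference of 0.79 ± 0.22 (adjusted p = 0.459, limma). For these 2 probes the 72 h hearts lay above the MCM hearts without overlap, as for 5.30% of all kept probes in that direction. The remaining 8 probes gave differences between -0.01 for Slc7a11 probe 2 and 0.70 ± 0.43 for Hmox1.

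The 72 h hearts differed among themselves. In 72 h replicate 2, Mt2 was at 7.49 against 5.56 and 5.999 in the other 72 h hearts, where it was not detected. Hmox1 was at 8.97 there against 6.86 and 6.94. Srxn1 probe 2 was at 9.48 against 8.46 and 8.34, and Gclm at 9.94 against 9.35 and 9.45. This heart had the highest value of the 72 h group for 9 of the 10 probes, and for 39.2% of all kept probes. It is also the 72 h heart with the raised macrophage markers, whose sum of 17049 compares with 7158 and 5647; their part in these values was not tested.

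Without that heart, 72 h against MCM gave -0.04 for Mt1, -0.13 for Mt2, 0.01 for Hmox1, 0.13 for Gclm, 0.12 for Srxn1 probe 2 and 0.52 for Srxn1 probe 3, and again no probe was called by limma. With all hearts, the 95% intervals of the 72 h difference reached up to 1.23 for Mt2 and 1.64 for Hmox1, and up to 0.61 for Mt1 and 0.36 for Nqo1 probe 1. Against adult wildtype hearts, where 8.67% of kept probes were called and 4.38% as higher, Hmox1 alone of the 10 probes was called at 72 h, with a difference of 1.79 and at least 1.64-fold (adjusted p = 0.0387, limma).

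**Figure D3:**
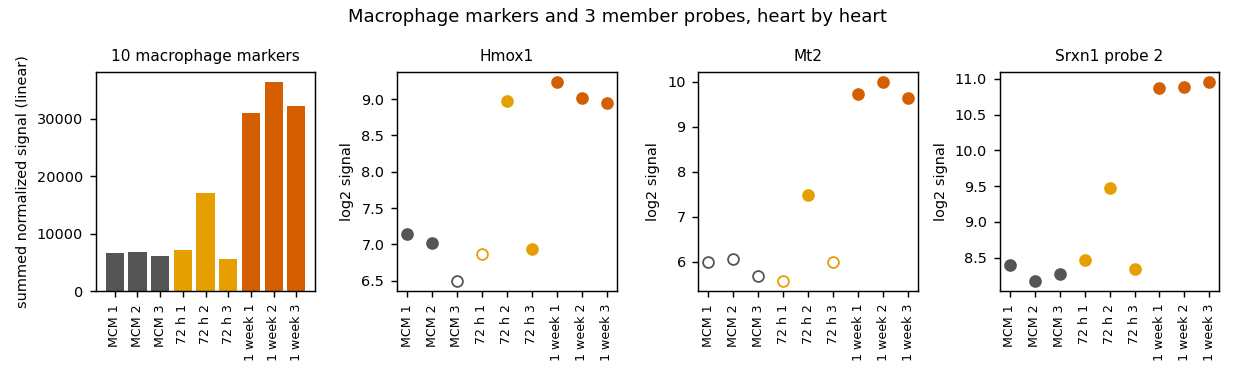
Summed signal of 10 macrophage markers (bars, linear scale from 0) and log2 signals of Hmox1, Mt2 and Srxn1 probe 2 (points, open where not detected) in the MCM, 72 h and 1 week hearts. In the 72 h group, replicate 2 is the highest in all 4 panels.

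The 2 times were compared directly. The probes higher at 1 week than at 72 h were 9 of 10, against 44.5% of all kept probes called and 20.8% called higher. Mt2, Txnrd1 and Slc7a11 probe 2 were kept through 1 week alone, so the filter fixed their direction and their calls add no support. Slc7a11 probe 2, not detected at 72 h, was at least 1.52-fold higher (adjusted p = 4.26e-07). Mt2, detected in 1 of 3 hearts at 72 h, differed by 3.44 on the log2 scale (adjusted p = 2.33e-05), Srxn1 probe 2 by 2.15 (2.96e-05), Mt1 by 1.24 (3.25e-04) and Gclm by 0.96 (3.80e-04), all in limma. Hmox1 differed by 1.47 (adjusted p = 0.0151, limma), with overlapping groups; the call was lost without 72 h replicate 1, 72 h replicate 3 or 1 week replicate 1, with adjusted p-values of 0.0703, 0.05725 and 0.0517, while without 72 h replicate 2 the difference was 2.17 (adjusted p = 5.78e-07). Nqo1 probe 1 differed by 0.17 (adjusted p = 0.265, limma).

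The E14 heart answers how these genes stand before birth. It is 1 array, assumed in the fit to vary like the other groups. Against the 2 adult wildtype hearts, 5 probes of 3 genes were lower and 1 was higher, in a comparison where 55.8% of all kept probes were called, 26.2% as lower and 29.6% as higher. Nqo1 probe 1 was at 7.02 in the E14 heart and at 10.46 and 10.59 in the adults, a fall by 3.51 ± 0.18 on the log2 scale, 11.4-fold (adjusted p = 1.75e-08, limma).

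Srxn1 probe 1 was at 7.61 in the E14 heart against 9.21 and 9.35 in the adults, 3.19-fold lower (adjusted p = 1.72e-05, limma). Srxn1 probes 2 and 3 were not detected in the E14 heart and were at least 5.48-fold and at least 2.30-fold lower (adjusted p = 5.69e-05 and 2.39e-04, limma). Mt1 was at 13.40 against 14.55 and 14.50, 2.17-fold lower (adjusted p = 0.00571, limma). Gclm went the other way, at 9.61 against 9.05 and 8.93, 1.53-fold higher (adjusted p = 0.0370, limma). This call was lost without either adult wildtype heart (adjusted p = 0.0656 and 0.119) and without 1 week replicate 1 (0.0502), and against MCM hearts the difference was 0.34 (adjusted p = 0.195, limma).

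Hmox1 was detected in the E14 heart at 7.005 and in neither adult wildtype heart, at 5.92 and 5.67, and the difference of 1.21 had an adjusted p of 0.132 in limma. It was called without 72 h replicate 2 (adjusted p = 0.00128), with array weights (0.00385) and in a fit of both groups' arrays alone (2.93e-04). Mt2 was detected in neither group. Macrophage markers were lower in the E14 heart than in adult wildtype hearts for 5 of 10, and cardiomyocyte markers for 4 of 6. Over all genes, with 1 probe per gene, 26.9% were lower. The part of cell composition was not tested. Against MCM hearts, where 59.7% of kept probes were called and 28.1% as lower, the same 5 probes were lower and none was higher. All 10 probes were higher at 1 week than in the E14 heart (58.0% of kept probes called, 26.7% as higher), with Nqo1 probe 1 at 14.2-fold. Of these, Mt2, Txnrd1 and Slc7a11 probe 2 were kept through 1 week alone and had to be higher at that time.

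**Figure D4:**
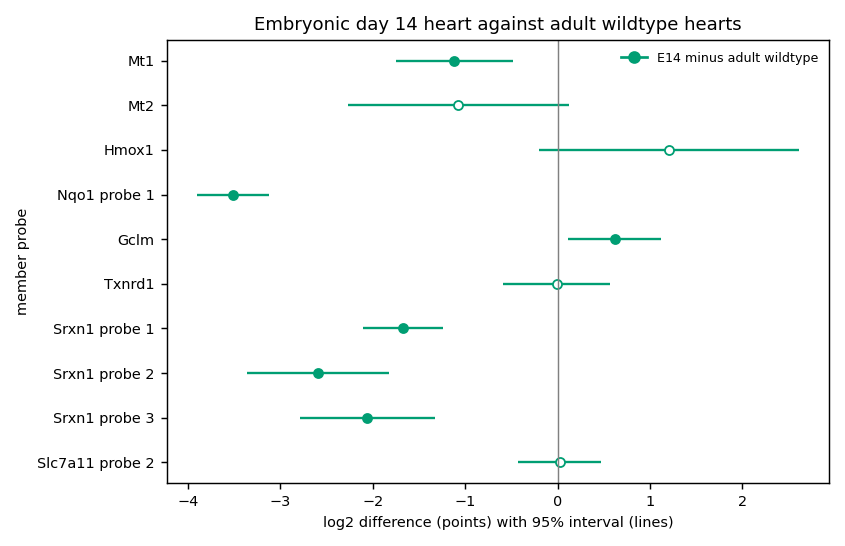
Log2 difference of the E14 heart from the 2 adult wildtype hearts for each kept probe, with 95% intervals from limma; filled points passed an adjusted p of 0.05. Nqo1 probe 1 lies farthest to the left at -3.51, and Gclm is the filled point above 0.

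The order of the group means was 1 week, 72 h, adult wildtype, MCM and E14 for Mt1, where only the outer steps, from 1 week to 72 h and from MCM to E14, passed the test. For Nqo1 probe 1 the only step that passed was that from the lowest adult group to E14. For Gclm the only step that passed was that from 1 week to the next group, E14 (0.93, adjusted p = 0.00277, limma).

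The number of these probes called between the 2 kinds of adult control depended on the fit. With 2 wildtype and 3 MCM hearts, a missing call does not show that the levels were alike. Between adult wildtype and MCM hearts 6.90% of all kept probes were called, 3.22% as higher in wildtype, and 1 of the 10 probes was. Srxn1 probe 1 was at 9.21 and 9.35 in adult wildtype hearts against 8.78, 8.58 and 8.82 in MCM hearts, a difference of 0.56 ± 0.15, 1.47-fold (adjusted p = 0.0418, limma). Srxn1 probes 2 and 3 differed by 0.58 and 0.66 with adjusted p-values of 0.242 and 0.153. Leaving out any single MCM or 1 week heart ended the Srxn1 probe 1 call, with adjusted p-values from 0.0546 to 0.135 in limma. Without adult wildtype replicate 1 or 2, which leaves 1 heart in that group, its difference was 0.62 or 0.49. Leaving out 72 h replicate 2 raised the count from 1 to 5 probes, adding Mt2, Hmox1 and both other Srxn1 probes. In that fit 13.3% of all kept probes were called. Hmox1 was lower in adult wildtype than in MCM hearts by 1.09 with an adjusted p of 0.226 in the fit of all hearts and 0.00216 without 72 h replicate 2.

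The regulators of NRF2 and the neighbouring pathways were described with 1 probe per gene, for 10169 genes. Of these, 2776 genes (27.3%) were higher and 2703 genes (26.6%) lower at 1 week than in MCM hearts, with a median difference of 0.00. At 72 h no gene of any of the 10 pathway lists was called by limma, and 18 genes (0.177%) were higher and 9 (0.0885%) lower over all genes. Counts are set beside those of all genes as a description and no test of the lists was made.

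Of 9 genes that control NRF2, 3 were higher and 2 lower at 1 week. Nfe2l2, which encodes NRF2 itself, was 1.47-fold lower (-0.55 ± 0.11, adjusted p = 0.00115, limma), and its competitor Bach1 was 1.56-fold lower (-0.64 ± 0.10, adjusted p = 1.81e-04). The small MAF partners Maff and Mafk, undetected in MCM hearts, were at least 1.68-fold and at least 1.26-fold higher, and Sqstm1, the autophagy receptor p62 that binds KEAP1, was 2.33-fold higher (adjusted p = 1.74e-05, limma). Maff and Mafk were kept through their detection at 1 week alone and had to be higher there, which leaves 1 higher gene of the list that the filter did not fix. Keap1 differed by -0.06 ± 0.11 and did not pass.

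Of 30 genes of glutathione synthesis and use, 10 were higher and 10 lower, with a median of 0.04. Among the higher genes were Gsta1, a glutathione transferase, at least 9.29-fold (adjusted p = 5.58e-07, limma), Chac1, which degrades glutathione, 6.20-fold, Slc3a2, and Gpx7, 2.97-fold. Gsta1 and Slc3a2 were kept through the 1 week hearts alone and had to be higher there, and the other 8 higher genes were not. The transferases Gstm7, Gstk1 and Gstt1 were 2.19-fold, 2.02-fold and 1.65-fold lower, and the mitochondrial glutaredoxin Glrx2 was 1.76-fold lower. The list split evenly between directions, with those 2 genes included.

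Of 11 thioredoxin and peroxiredoxin genes, Txn1 and Prdx4 were higher, 1.92-fold and 1.47-fold, and 3 were lower. Prdx3 and Txn2, the mitochondrial peroxiredoxin and thioredoxin, were 1.45-fold and 1.41-fold lower, and Msrb1 was 1.27-fold lower. Of 11 other NRF2 targets, 7 were higher, 1 of which (Osgin1) was kept through 1 week alone, and 2 lower, with a median of 1.39. The highest were Trib3 (5.59-fold), a stress kinase homologue that is also a target of the unfolded protein response, Akr1b8 (3.61-fold), Aldh1a1 (3.35-fold) and Esd (3.29-fold), the first 2 of which were detected in 2 of 3 MCM hearts; Cbr1 and Nqo2 were 1.39-fold and 1.38-fold lower.

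Of 9 genes of NADPH supply, which powers both the thioredoxin and glutathione systems, 4 were higher and 3 lower. Mthfd2, a mitochondrial folate enzyme, was 19.8-fold higher (4.30 ± 0.36, adjusted p = 2.69e-06, limma), Aldh1l2 2.75-fold, and the pentose phosphate enzymes Taldo1 and Tkt 2.28-fold and 1.75-fold. Malic enzyme Me1 was 3.40-fold lower, the mitochondrial transhydrogenase Nnt 3.19-fold (detected in 1 of 3 hearts at 1 week) and Idh1 1.68-fold. Me1 was detected in neither adult wildtype heart, so its fall holds against MCM hearts only. Against adult wildtype hearts, 5 of the 9 genes were higher at 1 week and 2 lower. Over all 10169 genes, 2490 were higher and 2477 lower in that comparison. Of 7 genes that remove superoxide and peroxide or make them, Sod3, Cyba and Sod1 were higher, 2.15-fold, 1.86-fold and 1.26-fold, while the mitochondrial dismutase Sod2 was 1.39-fold lower and Ucp3 at least 2.98-fold lower.

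Of 13 heme and iron genes, 5 were higher and 4 lower. Downstream of Hmox1, the biliverdin reductase Blvrb was 2.41-fold higher and the ferritin light chain Ftl1 4.06-fold (adjusted p = 4.59e-06, limma). The heme transporter Slc48a1 was 2.57-fold and the hemoglobin binder Hp 4.86-fold higher, the latter detected in 1 of 3 MCM hearts. The transferrin receptor Tfrc was 3.01-fold, the first enzyme of heme synthesis Alas1 2.15-fold, the iron exporter Slc40a1 1.65-fold and the constitutive heme oxygenase Hmox2 1.23-fold lower.

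For the metallothioneins, 6 of 14 zinc and metal genes were higher and 1 lower. Mtf1, the zinc sensor that binds metal response elements, was 3.01-fold higher (1.59 ± 0.16, adjusted p = 1.12e-05, limma). The zinc transporters Slc39a6, Slc39a7, Slc30a7 and Slc30a1 were 3.27-fold, 2.18-fold, 1.88-fold and 1.77-fold higher, the copper chaperone Atox1 was 1.93-fold higher, and Commd1 was 1.26-fold lower. Of 10 glucocorticoid-responsive genes 5 were higher and 1 lower, with Fkbp5 at 3.19-fold and Klf15 1.72-fold lower. All 7 tested acute-phase genes of the STAT3 pathway were higher, led by Serpina3n (24.0-fold), Lcn2 (22.3-fold) and Socs3 (8.01-fold).

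**Figure D5:**
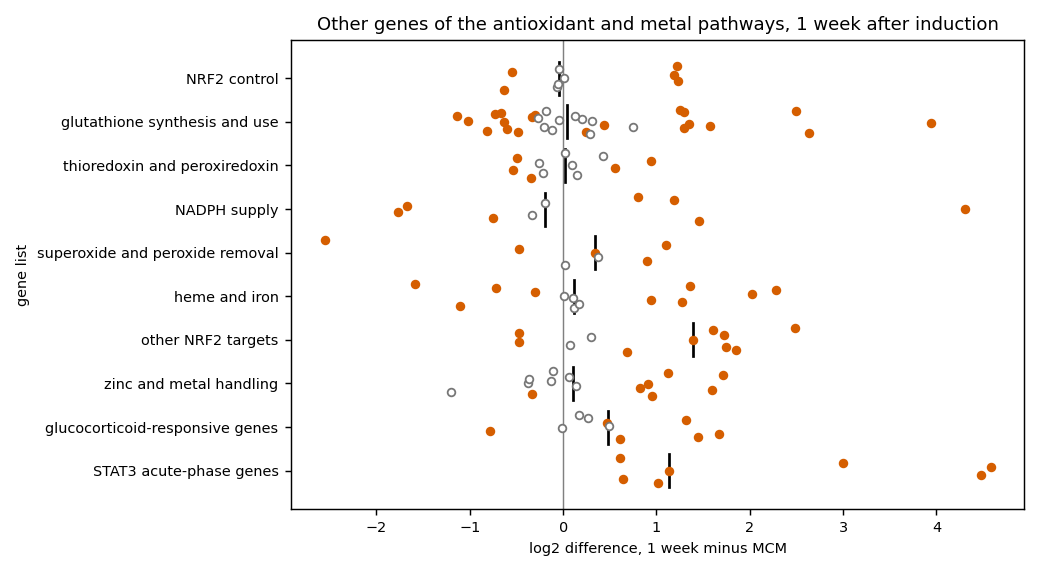
Log2 difference at 1 week from MCM hearts for every tested gene of 10 pathway lists, 1 point per gene; filled points passed an adjusted p of 0.05 and black ticks are list medians. The ticks of other NRF2 targets (1.39) and STAT3 acute-phase genes (1.14) lie farthest to the right.

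In the E14 heart, against adult wildtype hearts, 17 of the 30 glutathione genes were lower and 4 higher, where 26.9% and 30.4% of all genes were lower and higher. Gstk1 was 14.4-fold and Gstm1 13.4-fold lower. Of 11 thioredoxin genes 6 were lower, with Msrb1 at 9.12-fold, and 2 higher, Prdx4 at 4.55-fold and Sesn2, which was kept through the E14 array alone. Of 14 zinc and metal genes 8 were higher and 1 lower. Of the 8, 3 (Mt3, Slc39a8 and Slc39a10) were kept through the E14 array alone and had to be higher there, and 5 were not, among them Slc39a6 (4.998-fold). The metallothionein Mt3 was at least 4.05-fold higher than in adult wildtype hearts (adjusted p = 0.0131, limma). Against MCM hearts Mt3 did not pass (adjusted p = 0.187, limma). In that comparison with MCM hearts 5 of the 14 genes were higher, beside 3285 of all 10169 genes. Against adult wildtype hearts, Nfe2l2 was 1.96-fold and Sqstm1 3.44-fold lower in the E14 heart.

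Genes whose pattern over the 12 hearts was closest to each member were named by the root mean square of the log2 differences, after each gene was centred on its own mean, among 10161 genes. For Mt1 the closest were Serpinf1 (0.116), Srpx (0.137) and Mgp (0.157), and for Mt2 they were Sphk1 (0.346), Cytip (0.397) and Fpr2 (0.419). For Hmox1 they were Tnfrsf12a (0.371), Rin1 (0.407) and Sash3 (0.408). Gclm lay closest to Ppme1 (0.144), P4hb (0.146) and Hspa4 (0.152), and Txnrd1 to Mtdh (0.118), Hoxd8 (0.161) and Mtmr3 (0.170). Srxn1 lay closest to Hp (0.237), Hbegf (0.239) and Aldh3b1 (0.249), and Slc7a11 to Slpi (0.166), Jaml (0.169) and Lor (0.225). Nqo1, with its low E14 value, lay closest to Nol3 (0.166), Cidea (0.194) and Parp14 (0.204). A member with a small range over the hearts gives small values, so these distances are not comparable between members. Mt2 was detected in 4 of the 12 hearts, and Txnrd1 and Slc7a11 probe 2 in 3. Most values in the patterns of these members are therefore signals below detection.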

How the data were processed

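Total RNA of 12 hearts was measured on Illumina whole-genome bead arrays. Per the file headers, the deposited array files give mean bead signal as an intensity on a linear scale, without normalisation or background subtraction, and a detection score. The authors' deposited value table holds 1 quantile-mapped intensity per probe and array; its mapping, recomputed with 100 quantiles, gave the table's values within 0.001, which settled its linear scale and linked its probe names to the array files. The table's column medians were 129.5 to 129.8. No aligner or genome build for the probes is given in the sources used here. Of all probes, 34885 had 1 symbol in the platform annotation, 18 several and 10378 none; 78 symbols were not found in the RefSeq table of GRCm38.p6 and kept the annotation's name.

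Detection p was 1 minus the score. Background was corrected with nec (offset 16), followed by quantile normalisation and log2, in limma 3.58.1 under R 4.3.3. A probe was kept when all arrays of some group detected it (p below 0.01). One model of 5 group means over 12 arrays (7 residual degrees of freedom) was fitted per probe with eBayes and an intensity trend, with Benjamini-Hochberg adjustment over all 18370 kept probes. The fit was tested on simulated data. Pathway lists used the kept probe with the highest mean per gene; in each list up to 4 called genes per direction with the largest difference, and any NRF2 regulator, were eligible for naming, and Slc30a1, Slc30a7 and Osgin1 were named after their values were seen. The members and lists were chosen with earlier results of these data known. The number of arrays limits the precision. Labels number hearts within groups, and p-values measure only the spread between these hearts.

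Alternatives changed the background correction, normalisation, filter, spread, samples, threshold and control group.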

Additional observations from a re-analysis of the deposited data

Results flagged for a closer look

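The change from MCM hearts differed between 72 h and 1 week after induction for 9 of the 10 tested probes, by the test of the difference itself (1 week minus 72 h, limma, with 44.5% of all kept probes called). The differences on the log2 scale were 1.24 for Mt1, 3.44 for Mt2, 1.47 for Hmox1, 0.96 for Gclm and 1.31 for Txnrd1. Srxn1 gave 1.68, 2.15 and 2.00 for its 3 probes, and Slc7a11 probe 2 gave 2.28. For Mt2, Txnrd1 and Slc7a11 probe 2, kept through their detection at 1 week, such a difference was built into the filter. Txnrd1 and Slc7a11 probe 2 were not detected at 72 h, so their values are differences from signals below detection. The Hmox1 groups overlapped, since 72 h replicate 2 lay at 8.97 beside 8.94 to 9.23 at 1 week.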

How the results depend on the processing

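At 1 week, all 9 called probes kept direction and call under every alternative that tested them, with log2 differences between 1.28 and 1.55 for Mt1, 2.75 and 3.95 for Mt2, 1.59 and 3.27 for Hmox1, 1.17 and 1.55 for Gclm, and 0.72 and 1.45 for Txnrd1. The 3 Srxn1 probes ranged from 1.53 to 2.13, 2.05 to 2.69 and 2.13 to 2.93, and Slc7a11 probe 2 from 1.304 to 2.52. Nqo1 probe 1 ranged from 0.18 to 0.31. It was called in limma with array weights (adjusted p = 0.0450) and in a fit of both groups' arrays alone (0.0316). Those fits called 63.1% and 58% of all kept probes. Requiring detection on all 12 arrays left 4 probes, of which 3 were called at 1 week against MCM and 3 against 72 h. They were fewer because fewer were tested. Of all 11988 probes detected on all 12 arrays, 56.7% and 48.8% were called in these comparisons. At 72 h against MCM, 1 probe was called in limma with array weights, Srxn1 probe 3 (adjusted p = 0.00411), where 10% of all kept probes were called. Against adult wildtype hearts 1 probe was called at 72 h, Hmox1, where 8.67% of all kept probes were called. The single call between adult wildtype and MCM hearts became 0 with scaling to a common median and without a filter on dim probes. It also became 0 without the intensity trend, at an adjusted p below 0.01 and at a change of at least 1.5-fold. With array weights it became 4, where 18.9% of all kept probes were called. In a fit of both groups' arrays alone it became 4, where 11.3% were called. With no filter, Slc7a11 probes 3 and 4 also passed at 1 week (0.31 and 0.64), though no array detected them.

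MCM, 72 h and 1 week hearts were left out 1 at a time. For 1 week against MCM this gave 9 to 10 called probes, with 44.7% to 58.3% of all kept probes called. For 1 week against 72 h it gave 8 to 9 (35.1% to 53.4%), and for 72 h against MCM 0 (0.158% to 0.577%). For E14 against adult wildtype it gave 5 to 8 (53.7% to 61.3%), and for adult wildtype against MCM 0 to 5 (3.86% to 13.3%). The labels do not say whether replicate numbers pair the hearts. Over 15 pairs the correlations of deviations ran from -0.046 to 0.275, 2 of them above 0.1. The highest was that of MCM and 72 h replicate 3. Deviations from means of 2 or 3 hearts are not independent, so these values cannot exclude pairing. With the replicate number as a block, 0 probes were called at 72 h, 9 at 1 week, 9 between the times and 0 between adult wildtype and MCM. Of all kept probes 0.267%, 52.6%, 44.7% and 5.86% were called in these comparisons. No paired analysis was possible because the E14 title carries no number, in the comparisons with E14. Of the single-probe results, 1107 kept their direction and side of the threshold, 24 lost a call, 22 gained one, 27 uncalled differences changed sign and 0 called ones did. Of the 16 probes, 6 lay below detection on every array, and changes in them could not be seen.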

Other observations

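Malic enzyme Me1, a NADPH source in the list of pathway genes, differed between the 2 kinds of adult control. It was detected in all 3 MCM hearts at a mean log2 signal of 9.19 and in neither adult wildtype heart (5.21). MCM hearts were at least 4.98-fold higher (adjusted p = 5.89e-07, limma). The hearts at 1 week, all with Me1 detected, had a mean of 7.42 and were 3.40-fold below MCM hearts. That mean lay above the adult wildtype mean, so the direction at 1 week depends on the control.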
